A study of Mus musculus with 6 samples.

Results

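The genes that build the nuclear pore, and the karyopherins that carry cargo through it, were followed in RAW264.7 cells, a macrophage-like mouse line that arose from a leukaemia. Cells had been transfected either with a miR-125b mimic, labelled as overexpression of that microRNA, or with a negative control, and each group comprised 3 libraries. Both groups were thus transfected, and the dose, the time after transfection and the arm of the microRNA carried by the mimic are not given in the labels. The members were the rows of the deposited FPKM table (fragments scaled to exon length and to library depth) whose Ensembl identifier maps to a symbol made of Nup and digits, to a symbol starting with Kpna, or to any of 17 further symbols of pore and karyopherin genes. This gave 42 of the 16665 genes in the table, 29 nucleoporins and 13 transport receptors. Kpna7, Nup62cl and the pseudogene Kpna2-ps also carry fitting symbols in the annotation (45 symbols in all) but had no row in the FPKM table.

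The nuclear pore complex is a ring of nucleoporins that spans the nuclear envelope. Y-shaped complexes and an inner ring form its scaffold, membrane nucleoporins anchor it, and nucleoporins rich in phenylalanine and glycine repeats fill the channel and keep large molecules out. Karyopherins are the soluble receptors that cross this barrier: importin alpha proteins read the classical nuclear localization signal and ride with importin beta, while other members of the beta family import or export cargo directly, and the GTPase Ran sets the direction. In macrophages the same machinery brings inflammatory transcription factors such as NF-kB and the STAT proteins into the nucleus.

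A microRNA guides silencing through its seed, bases 2 to 8, which pairs with sites in the 3′ untranslated region (3′ UTR) of messenger RNAs. The mature miR-125b-5p is printed first, with the seed in capitals (RefSeq, GRCm38.p6; chr9:41581940-41581961 and chr16:77646279-77646300, plus strand), because its seed defines the sites that were searched for. The 4 windows of 30 bases after it are the 8mers found among the members (Xpo7 and Nup210) and a weaker site in each of a pair of receptors, Tnpo3 and Kpna4, with the match in capitals. They were read from GENCODE M21 transcripts on GRCm38, all on the minus strand, at chr14:70656891-70656920, chr6:91014018-91014047, chr6:29579565-29579594 and chr3:69070867-69070896 in the order printed.
mmu-miR-125b-5p: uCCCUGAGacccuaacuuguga
Xpo7 8mer: taaaccaagcaCTCAGGGAgcagaaggaac
Nup210 8mer: actgtagtgatCTCAGGGAaaggattttct
Tnpo3 7mer-A1: atgcagcttttTCAGGGAgtcctgacattg
Kpna4 7mer-m8: tagagtctcttCTCAGGGccttacaagtct

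Negative control 3 stood apart from the other controls. Depth recovered from the FPKM steps was 14.45 M to 16.81 M fragments, and 214 to 17769 fragments lay behind each tested member in each library. Negative control 3 had the fewest genes above 0 FPKM, 13266 against 15141 to 15470 in the other libraries. Its median log2(FPKM + 1) over tested genes was also the lowest, 2.93 against 3.01 to 3.13. On the first principal component, which held 53.2% of the variance, negative controls 1 and 2 scored −23.9 and −23.3, mimics 1 and 2 scored −1.69 and 1.24, mimic 3 scored 15.2 and negative control 3 scored 32.5. The second component (25.6%) separated the groups, with controls at 10.7 to 17.1 and mimics at −18.7 to −3.34, mimic 3 nearest to the controls. Negative control 3 correlated at 0.962 to 0.975 with the mimic libraries and at 0.944 and 0.946 with the other controls. Counts of calls and the estimates that change sign without it are therefore also given without it. The label of a macrophage line was met: 9 of 10 macrophage markers had a mean FPKM of at least 1 (summed FPKM 7162 to 8635 in controls and 6407 to 6676 with the mimic, mostly Lyz2), and Mrc1 stayed at or below 0.0408. The markers of T cells, B cells, granulocytes, dendritic cells, fibroblasts and endothelial cells summed to at most 0.726 FPKM per list in any library, and none of the 4 epithelial markers was in the table.

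Receptors were the abundant members. Ipo5 (importin 5), with a mean level of 101 FPKM over the 6 libraries, stood highest of the 42, followed by the exportin Xpo1 (92.1 FPKM), importin beta itself, Kpnb1 (88.6 FPKM), and Ipo7 (80.7 FPKM). The lowest receptor was Xpo7 at 7.21 FPKM. Among nucleoporins the highest level was that of the Y complex subunit Seh1l, at 59.1 FPKM, while the other Y subunits reached down to 3.49 FPKM for Nup133. Basket nucleoporins lay at 19.6 FPKM (Nup50) to 34.4 FPKM (Nup153), channel nucleoporins at 10.4 FPKM (Nup98) to 21.5 FPKM (Nup62), and the inner ring at 8.45 FPKM (Nup155) to 33.0 FPKM (Nup205). Nup210l, a paralogue of the membrane nucleoporin Nup210, read 0.897, 0.863 and 0.582 FPKM in the controls and 0.557, 0.569 and 0.932 FPKM with the mimic. It was the only member under the filter of a mean FPKM of 1, so 41 members were tested.

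**Figure D1:**
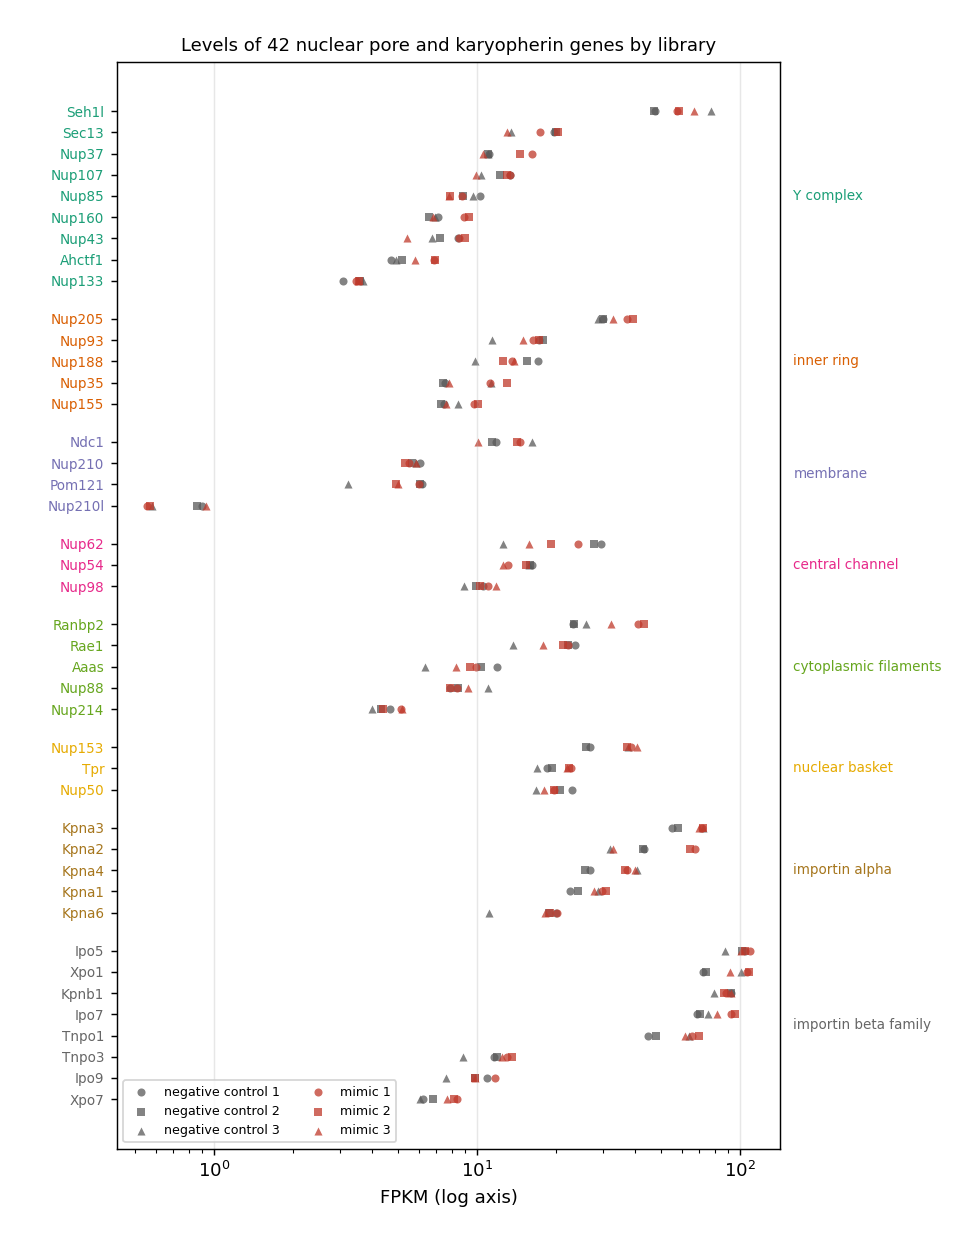
Level of each of the 42 members in the 6 libraries, in FPKM on a log axis, with members grouped by role and 1 point per library. Receptors fill the upper end of the range (Ipo5, mean 101 FPKM) and Nup210l the lower end (mean 0.733 FPKM), and for most members the points of the groups lie among each other.

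The main comparison asked which members differ in level between mimic and negative control. With all 6 libraries none passed: limma on log2(FPKM + 1), with Benjamini-Hochberg adjustment over 10166 genes, called 0 of 41 members (smallest adjusted p = 0.332), and it called 0% of all tested genes (smallest adjusted p = 0.289). At an unadjusted p under 0.05, 7 members (17.1%) stood higher with the mimic, against 7.96% of all tested genes, and 0 stood lower, against 5.26%. These counts moved with scaling. With each library shifted to the same median, 4 members stood higher and 0 lower, against 532 and 802 of all tested genes. With quantile normalization 9 members stood higher and 0 lower, against 706 and 678 genes. limma voom on recovered fragments also called 0 members and 0 genes, with 7 members and 1393 genes at an unadjusted p under 0.05. The estimates were positive for 31 members and negative for 10, with a median log2 fold change (mimic minus negative control) of 0.14, where 56.3% of all tested genes were positive and their median was 0.04. The labels do not say whether the 3 libraries of a group stem from separate cultures, so these p-values measure the spread between libraries, which may be technical. In bulk RNA, a change in the mix of cell states cannot be told apart from a change per cell.

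All 13 receptors had a positive estimate (median 0.26, range 0.02 to 0.42), while the 28 tested nucleoporins split into 18 positive and 10 negative (median 0.07, range −0.21 to 0.65). Summed over the receptors, the level was 578, 584.7 and 614.9 FPKM in the controls and 720.4, 719.1 and 646.5 FPKM with the mimic. The mimic libraries were the higher ones without overlap, and mimic 3 lay nearest to the controls. Summed nucleoporins read 425.2, 411.8 and 408.8 FPKM against 471.1, 470.5 and 421.9 FPKM, and here mimic 3 lay below negative control 1. With each library shifted to the same median, 12 of the 13 receptors were positive, and the nucleoporins split into 15 positive and 13 negative. Without negative control 3, 11 of the 13 receptors were positive, Kpna6 (−0.02) and Kpnb1 (−0.05) being negative, and the nucleoporins again split into 15 and 13. After each library was detrended for exon length and GC content by regression, 7 receptors were positive and 6 negative (median 0.02). The nucleoporins then stood at 14 and 14 (median 0.02). The regression held no term for the group, so it also takes out any group difference that follows length or GC. Whether receptors and nucleoporins differ from each other was not tested.

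**Figure D2:**
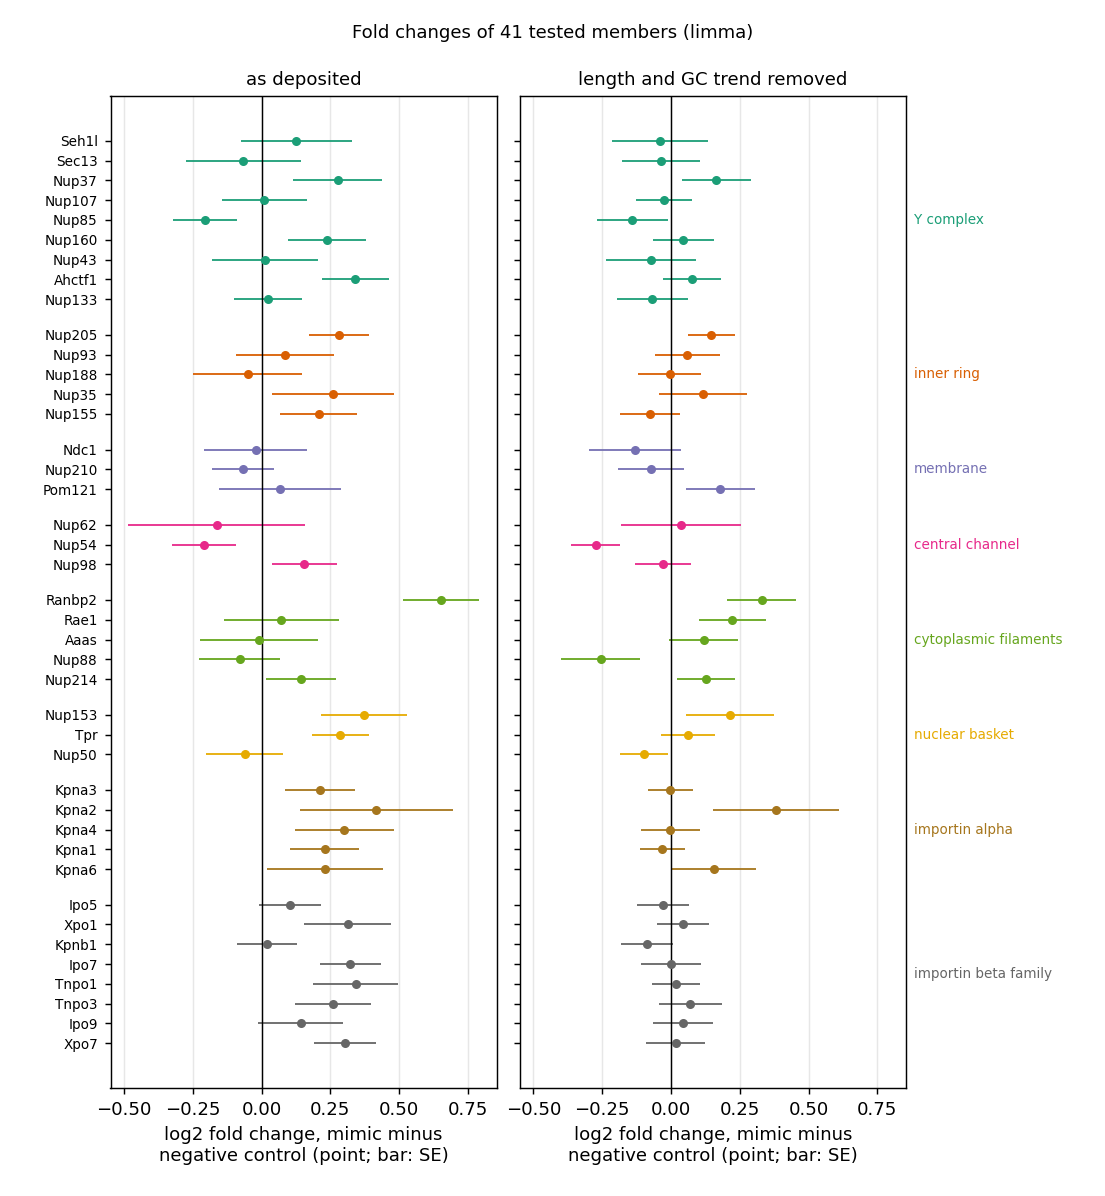
Log2 fold change (mimic minus negative control, log2(FPKM + 1) scale) of the 41 tested members with its standard error, by role, for the values as deposited and after detrending for exon length and GC content. As deposited 31 of 41 points lie above 0, and after detrending 21 do, Kpna2 (0.38) and Ranbp2 (0.33) highest.

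In the Y complex, 7 of 9 members had a positive estimate, with a median of 0.02. With each library shifted to the same median or quantile normalized 4 of 9 were positive, after detrending 3, and without negative control 3 there were 5. Ahctf1 (ELYS), which recruits the first pore subunits to chromatin after mitosis, read 4.70, 5.18 and 4.91 FPKM in the controls and 6.85, 6.93 and 5.79 FPKM with the mimic. Every mimic library lay above every control (log2 fold change of 0.34 with SE 0.12, limma adjusted p = 0.341). Nup85, a scaffold subunit of the Y, read 10.2, 8.86 and 9.62 FPKM against 8.79, 7.86 and 7.83 FPKM, so that it was lower with the mimic without overlap (−0.21, SE 0.12, limma adjusted p = 0.475). Nup37 was nearly level in the controls (11.1, 11.0 and 11.0 FPKM), and its mimic libraries read 16.2, 14.6 and 10.5 FPKM. Mimics 1 and 2 were the high ones and mimic 3 lay below all controls (0.28, SE 0.16, limma adjusted p = 0.491). The scaffold subunits Nup160 (0.24), Nup133 (0.02), Nup43 (0.01) and Nup107 (0.01), and Sec13 (−0.07), which also coats secretory vesicles, had errors of 0.12 to 0.21. Seh1l, at 47.4, 47.0 and 77.4 FPKM in the controls and 57.5, 58.8 and 66.8 FPKM with the mimic, had its highest value in negative control 3 (0.13, SE 0.20). Without that library the estimates were 0.36 for Seh1l, −0.08 for Nup107 and −0.05 for Nup43.

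The inner ring gave positive estimates for 4 of 5 members (median 0.21). Nup205, a large scaffold subunit, read 30.2, 30.1 and 28.7 FPKM in the controls and 37.2, 39.0 and 32.8 FPKM with the mimic. Its groups did not overlap, mimic 3 lying lowest of the mimic libraries (log2 fold change of 0.28 with SE 0.11, limma adjusted p = 0.359). Nup155, which links the ring to the membrane, read 7.47, 7.30 and 8.45 FPKM against 9.76, 10.1 and 7.62 FPKM, with mimic 3 inside the control range (0.21, SE 0.14, limma adjusted p = 0.532). Nup35, another membrane-binding subunit, read 7.56, 7.40 and 11.3 FPKM against 11.2, 13.0 and 7.84 FPKM. The high libraries were negative control 3 and mimics 1 and 2, so that library 3 of each group read unlike its 2 fellows (0.26, SE 0.22, limma adjusted p = 0.627). Nup93 (0.09) and Nup188 (−0.05), scaffold subunits of the same ring, were close to 0 relative to their errors (SE 0.18 and 0.20), and without negative control 3 they were at −0.11 and −0.28.

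Of the 3 tested membrane nucleoporins, none of the groups separated. Nup210 (gp210) read 6.09, 5.67 and 5.87 FPKM in the controls and 5.51, 5.34 and 5.85 FPKM with the mimic (log2 fold change of −0.07 with SE 0.11, limma adjusted p = 0.812). Pom121, a transmembrane anchor, read 6.19, 6.08 and 3.24 FPKM against 6.02, 4.91 and 5.00 FPKM, the lowest value being that of negative control 3 (0.07, SE 0.22, limma adjusted p = 0.913). Exons of Nsun5 on the opposite strand overlap 11.9% of its exon bases, and since no source used here gives the strand setting of the counting, its value is uncertain. In the remaining members no single other gene overlapped more than 7.88% of exon bases. Nup188 was overlapped by Gm14471 (7.88%) and Gm28038 (4.55%), and Nup133 by Gm29773 (6.56%) and Gm45890 (3.81%). Tnpo3, with a mean of 11.9 FPKM, shared 3.14% of its exon bases with Irf5, with a mean of 18.2 FPKM. Ndc1, which anchors the ring to the membrane, read 11.8, 11.4 and 16.2 FPKM against 14.5, 14.1 and 10.1 FPKM, with negative control 3 highest and mimic 3 lowest (−0.02, SE 0.19, limma adjusted p = 0.974). The sign of Pom121 (−0.18) and of Ndc1 (0.13) turned without negative control 3.

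The central channel had 1 positive and 2 negative estimates (median −0.16). Nup54, a partner of Nup62 in the channel, read 16.1, 16.0 and 15.7 FPKM in the controls and 13.1, 15.4 and 12.6 FPKM with the mimic. All mimic libraries lay below all controls (log2 fold change of −0.21 with SE 0.12, limma adjusted p = 0.469). After detrending for length and GC, Nup54 was at −0.27, unadjusted p = 0.0162 by limma, the only member lower at an unadjusted p under 0.05. Nup62, the repeat-rich protein at the heart of the channel, read 29.5, 27.9 and 12.5 FPKM in the controls, and the mimic libraries, at 24.2, 19.2 and 15.7 FPKM, lay between control 3 and the other controls (−0.16, SE 0.32, limma adjusted p = 0.844). Nup98, which also binds active genes, read 10.5, 9.88 and 8.94 FPKM against 11.0, 10.3 and 11.8 FPKM, with overlap (0.16, SE 0.12, limma adjusted p = 0.577).

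At the cytoplasmic face, Ranbp2 (Nup358; ENSMUSG00000003226, chr10:58446920-58494356 on GRCm38, plus strand), the giant filament protein that binds Ran and acts as a SUMO ligase, had the largest log2 fold change and the smallest p of the 41 members. It read 23.1, 23.4 and 25.8 FPKM in the controls and 40.8, 43.2 and 32.2 FPKM with the mimic, means of 24.1 ± 1.51 and 38.7 ± 5.76 (SD, n = 3), a ratio of 1.61. All mimic libraries lay above all controls, mimics 1 and 2 by more than mimic 3 (0.65, SE 0.14, unadjusted p = 0.00185, limma adjusted p = 0.332). After detrending its estimate was 0.33 (unadjusted p = 0.0321, limma adjusted p = 0.476), and its groups still did not overlap. With negative control 3 left out as well it was 0.26 (limma adjusted p = 0.234). Nup214, which docks exported messenger ribonucleoproteins, read 4.69, 4.33 and 3.97 FPKM against 5.12, 4.38 and 5.19 FPKM (0.14, SE 0.13, limma adjusted p = 0.638). Nup88, its partner, read 7.91, 8.45 and 11.0 FPKM against 8.37, 7.91 and 9.24 FPKM (−0.08, SE 0.15, limma adjusted p = 0.833). The groups of both overlapped. The RNA export factor Rae1 (0.07) and the pore protein Aaas (−0.01) had errors of 0.21 and 0.22. Nup88 was at 0.05, Rae1 at −0.16 and Aaas at −0.25 without negative control 3.

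In the nuclear basket both large proteins stood higher with the mimic at an unadjusted p under 0.05. Tpr, the coiled-coil protein that forms the basket filaments, read 18.4, 19.2 and 16.9 FPKM in the controls and 22.7, 22.4 and 22.0 FPKM with the mimic, the mimic libraries being tight and all above the controls (log2 fold change of 0.29 with SE 0.10, limma adjusted p = 0.344). Nup153, which anchors Tpr to the ring, read 26.9, 25.9 and 37.5 FPKM against 38.4, 37.2 and 40.7 FPKM. Negative control 3 lay inside the range of the mimic libraries and the other 2 controls well below it (0.37, SE 0.16, limma adjusted p = 0.371; 0.22 after detrending, unadjusted p = 0.216). Nup50, which helps release importin alpha cargo, read 22.9, 20.7 and 16.7 FPKM against 19.7, 19.7 and 17.9 FPKM, with overlap (−0.06, SE 0.14, limma adjusted p = 0.868).

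The 5 importin alpha genes all had positive estimates (median 0.23), and none had an unadjusted p under 0.05. Kpna1, known as a carrier of STAT proteins, read 22.5, 24.1 and 28.8 FPKM in the controls and 29.9, 30.8 and 27.8 FPKM with the mimic (log2 fold change of 0.23 with SE 0.13, limma adjusted p = 0.464). Kpna4, known as a carrier of NF-kB, read 26.9, 25.7 and 40.7 FPKM against 37.0, 36.6 and 39.7 FPKM (0.30, SE 0.18, limma adjusted p = 0.495), and Kpna3, its close paralogue, read 55.1, 58.1 and 72.0 FPKM against 71.7, 72.2 and 69.7 FPKM (0.21, SE 0.13, limma adjusted p = 0.498). In all of these, negative control 3 read like the mimic libraries and controls 1 and 2 were the low ones. Kpna2, the importin alpha that is abundant in dividing cells, read 43.2, 42.7 and 32.1 FPKM against 67.6, 64.5 and 32.9 FPKM. Mimics 1 and 2 were high, and library 3 of both groups read alike and lowest (0.42, SE 0.28, limma adjusted p = 0.531); a pseudogene, Kpna2-ps, may share its reads, so its value is uncertain. Kpna6, a close relative of Kpna1, read 19.9, 18.8 and 11.1 FPKM against 20.1, 19.0 and 18.2 FPKM, with negative control 3 alone low (0.23, SE 0.21). Without that library the estimate of Kpna6 was −0.02, so 4 of the 5 were then positive.

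The make-up of the importin alpha pool in library 3 differed from that in libraries 1 and 2 in both groups. Kpna2 made up 25.8%, 25.2% and 17.4% of summed importin alpha FPKM in the controls and 29.9%, 28.9% and 17.5% with the mimic. Kpna4 made up 16.1%, 15.2% and 22.0% against 16.4%, 16.4% and 21.1%, and Kpna3 32.9%, 34.3% and 39.0% against 31.7%, 32.3% and 37.0%. In both groups library 3 had the lowest share of Kpna2 and the highest shares of Kpna1, Kpna3 and Kpna4, Kpna1 lying between 13.2% and 15.6% in all 6 libraries. Kpna6 made up 11.9%, 11.1% and 6.03% in the controls and 8.90%, 8.51% and 9.65% with the mimic, so that library 3 was lowest among the controls and highest among the mimics.

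**Figure D3:**
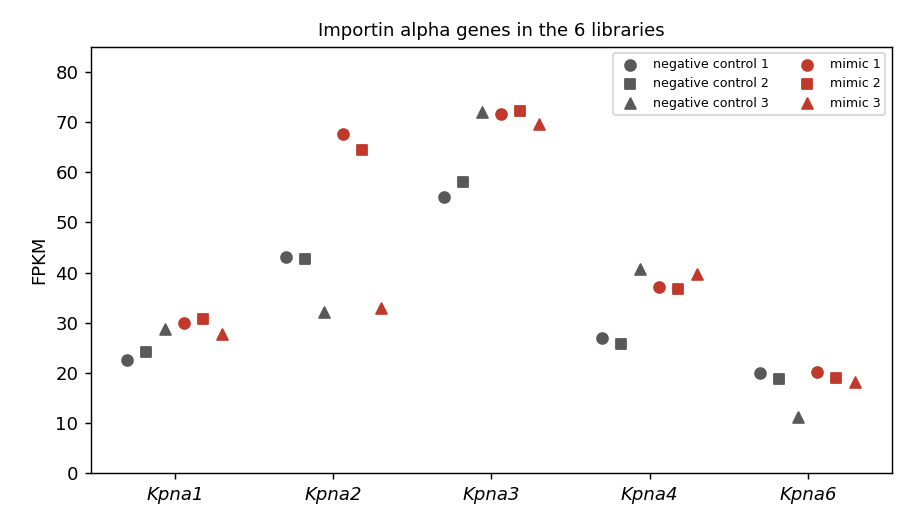
Level of the 5 importin alpha genes (FPKM) in each of the 6 libraries. Kpna2 is at 42.7 to 67.6 FPKM in libraries 1 and 2 of both groups and at 32.1 and 32.9 FPKM in negative control 3 and mimic 3, while Kpna3 and Kpna4 read higher in negative control 3 than in the other controls.

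In the importin beta family all 8 members had positive estimates (median 0.28), 2 of them at an unadjusted p under 0.05. Ipo7, which imports ribosomal proteins and histones, read 68.8, 70.5 and 75.3 FPKM in the controls and 92.1, 95.8 and 81.7 FPKM with the mimic. The mimic libraries were all higher, mimic 3 by the least (log2 fold change of 0.32 with SE 0.11, limma adjusted p = 0.332). Xpo7, a broad-specificity exportin, read 6.22, 6.78 and 6.07 FPKM against 8.40, 8.16 and 7.66 FPKM. Again every mimic library lay above every control (0.30, SE 0.11, limma adjusted p = 0.344). Tnpo1 (transportin), the importer of many RNA-binding proteins, read 44.6, 47.9 and 63.9 FPKM against 65.5, 69.6 and 61.8 FPKM, and negative control 3 lay inside the mimic range (0.34, SE 0.15, limma adjusted p = 0.390). Xpo1 (CRM1), the exporter of cargo with leucine-rich signals, showed the same arrangement at 72.1, 74.3 and 101 FPKM against 106, 108 and 91.7 FPKM (0.31, SE 0.16, limma adjusted p = 0.432). Tnpo3, the importer of splicing factors, read 11.6, 11.9 and 8.86 FPKM against 13.0, 13.6 and 12.4 FPKM without overlap (0.26, SE 0.14, limma adjusted p = 0.455). Ipo9 (0.14), an importer of histones, and Ipo5 (0.10), an importer of ribosomal proteins, had errors of 0.15 and 0.11, and importin beta itself, Kpnb1, was level at 92.2, 92.5 and 79.6 FPKM against 88.5, 86.6 and 92.2 FPKM (0.02, SE 0.11). Without negative control 3 Kpnb1 was at −0.05, Ipo9 at 0.01, Ipo5 at 0.03 and Tnpo3 at 0.14.

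In all, the groups did not overlap for 7 members that stood higher with the mimic (17.1%), namely Ranbp2, Nup205, Tpr, Ahctf1, Ipo7, Xpo7 and Tnpo3, against 12.6% of all tested genes. They did not overlap for 2 that stood lower, Nup54 and Nup85 (4.88%), against 7.49%.

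**Figure D4:**
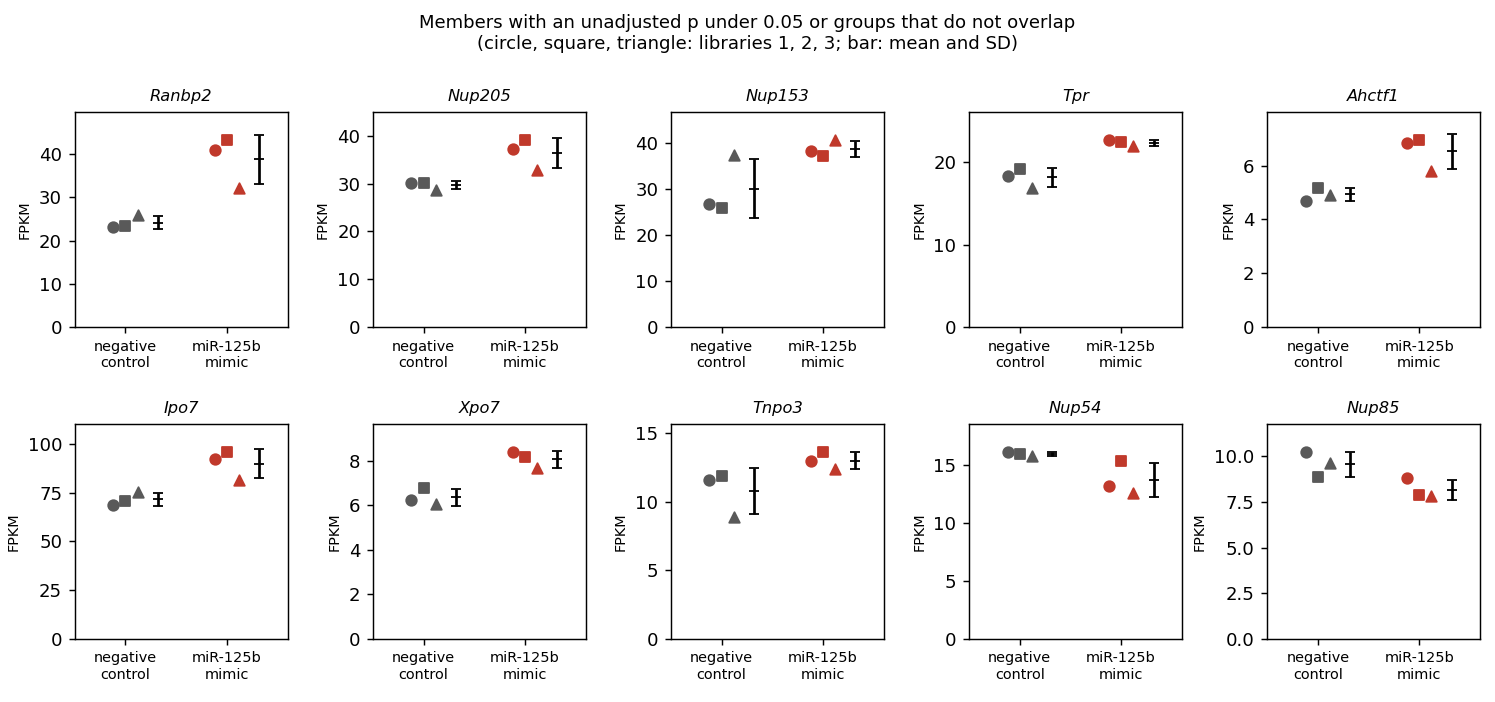
Level (FPKM) in each library of Ranbp2, Nup205, Nup153, Tpr, Ahctf1, Ipo7, Xpo7, Tnpo3, Nup54 and Nup85, with the group mean and SD (n = 3). In all but Nup153 the groups do not overlap; in Nup153, negative control 3 at 37.5 FPKM lies above the other controls at 25.9 and 26.9 FPKM.

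Length and base composition moved with these values. The members are long: their median exon length was 6729 nt (2554 to 19005), against 4252 nt over all tested genes, and their median GC content was 46.0% against 49.0%. The 7 members with an unadjusted p under 0.05 spanned 7017 to 19005 nt and 40.3% to 48.3% GC. Over the 41 members, log2 fold change correlated with exon length at a Spearman rho of 0.52 and with GC content at −0.60, and over all tested genes at 0.38 and −0.55. These points share libraries, so the values are descriptions. Of the 12 members over 9000 nt, 11 were positive (median 0.28), and of 29 shorter ones 20 were positive (median 0.07); among all tested genes over 9000 nt, 88% were positive, with a median of 0.20. A library's deviation from each gene's mean correlated with exon length at −0.26, −0.31 and 0.01 in the controls and at 0.28, 0.22 and 0.28 with the mimic. The libraries below 0 or near it were the controls. Its correlation with GC content was 0.66, 0.58 and −0.32 in the controls and −0.35, −0.52 and −0.21 with the mimic, so for GC negative control 3 had the sign of the mimic libraries.

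After detrending, the members split into 21 positive and 20 negative, with a median of 0.02 (0.00 over all tested genes). None passed limma. Ranbp2 alone stood higher at an unadjusted p under 0.05 (4.73% of all tested genes) and Nup54 alone lower (4.96%). The groups did not overlap for 2 of the 41 members on the higher side, Ranbp2 and Nup205 (8.42% of all tested genes). On the lower side they did not overlap for 2 of the 41, Nup54 and Nup50 (8.19%). Nup50 was barely apart: its lowest control was at 4.322 and its highest mimic library at 4.317 in detrended log2 units (unadjusted p = 0.301 by limma). The estimates of Ipo7, Kpna3 and Kpna4 then lay at 0.00 to 2 decimals, and those of Xpo7 (0.02), Tnpo1 (0.02), Xpo1 (0.04), Tpr (0.06), Tnpo3 (0.07), Ahctf1 (0.08), Nup205 (0.15), Nup153 (0.22) and Ranbp2 (0.33) were over 1.5 times smaller than as deposited. The sign turned for 14 of the 41. The part of length and GC in the differences as deposited was not tested further.

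**Figure D5:**
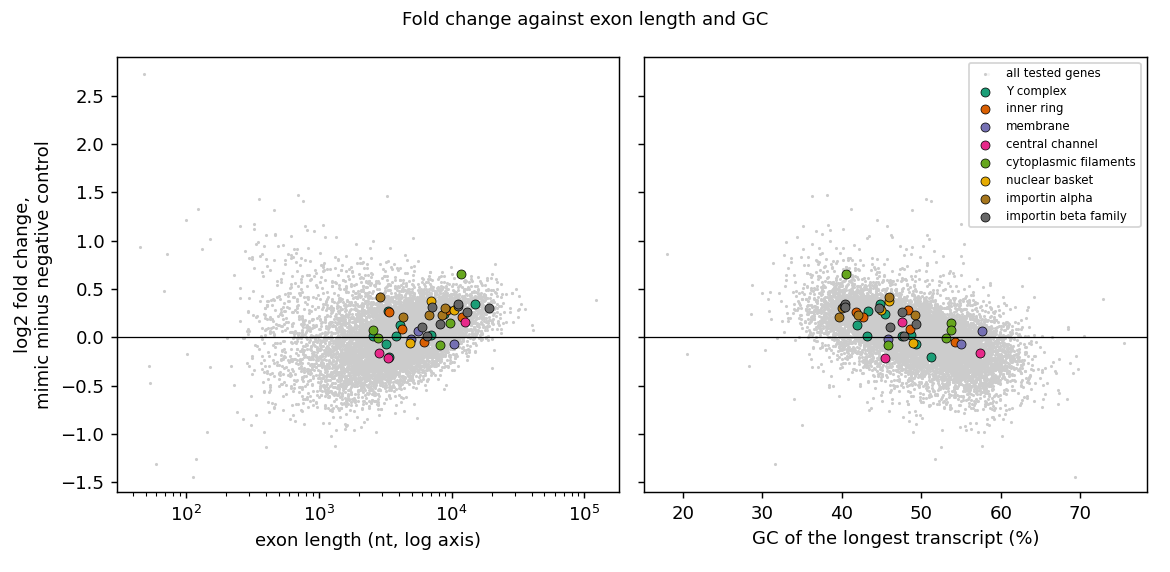
Log2 fold change (mimic minus negative control) against exon length and against GC content, for all tested genes in grey and the 41 members coloured by role. Longer and GC-poorer members lie higher (Spearman rho 0.52 and −0.60), as do the grey points (0.38 and −0.55).

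Whether members passed depended on library 3. Without negative control 3, limma called 9 members, all higher (22%), where 11.6% of all tested genes were called higher and 12.2% lower. They were Nup153 (0.53, limma adjusted p = 0.00735), Kpna4 (0.51, limma adjusted p = 0.00825), Tnpo1 (0.49, limma adjusted p = 0.0102), Ranbp2 (0.70, limma adjusted p = 0.0138), Xpo1, Kpna3, Seh1l, Ipo7 and Kpna1. Negative control 3 was singled out from the data, so adjusted p-values without it do not hold at face value. Negative control 3 itself lay closer to the mimic mean than to the mean of controls 1 and 2 for 24 of the 41 members (58.5%; 65.2% of all tested genes), and Nup153, Kpna4, Tnpo1, Xpo1 and Seh1l in particular read high in it. After detrending as well, 0 of the members were called, against 3.84% of all tested genes. With array weights, which give negative control 3 little weight, limma called 22 of the 41 members, 19 higher and 3 lower. Of all tested genes it called 51.9%. Without library 3 of either group, 21 members were called (51.2%), against 43.1% of all tested genes. Among those members Nup62 (−0.40) and Nup188 (−0.30) stood lower and the others higher. After detrending too, 6 were called (14.6%; 20.1% of all tested genes): Kpna2, Ranbp2, Nup153, Nup35 and Nup205 higher, and Kpnb1 lower.

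Sites for miR-125b-5p were looked for on the transcript strand, in the longest 3′ UTR that the annotation gives a gene, as the 8mer CTCAGGGA and as the 7mers CTCAGGG and TCAGGGA that overlap within it. Of the 41 members 8 held at least 1 (19.5%), against 24% of the 9313 tested genes with a 3′ UTR. An 8mer was in 2 members (4.88%) and in 5.87% of those genes. Xpo7 held 5 sites in a 3′ UTR of 11755 nt, its printed 8mer starting at base 9092. Nup210 held 2, its 8mer at base 363 of 1331. Kpna4 and Nup50 held 2 each, and Nup214, Kpna6, Tnpo3 and Ipo9 held 1 each. The members with a site had 6 positive and 2 negative estimates (median 0.19), and the 33 without had a median of 0.13; after detrending the medians were 0.03 and 0.00. Xpo7, with the most sites, had every mimic library above every control as deposited, and Nup210, with the other 8mer, overlapped. A match of these letters is a description of the window, not a measured binding site. The labels do not give the arm that the mimic carries, so these are sites of the 5p arm only.

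Genes that work beside the pore and its receptors were read from a separate list of 36 (the Ran cycle, further karyopherins, messenger RNA export and the nuclear lamina and envelope), of which 34 were tested. limma called 0 of them, as did voom, and 16 estimates were positive and 18 negative, with a median of −0.05. Among its karyopherins Xpot (0.44), Xpo4 (0.37), Ipo11 (0.35), Cse1l (0.30), Ipo8 (0.20), Tnpo2 (0.17), Xpo6 (0.05) and Xpo5 (0.03) were positive. Ipo4 (−0.16) and Ipo13 (−0.06) were negative. After detrending Ipo8 (−0.08), Xpo6 (−0.27) and Xpo5 (−0.02) were negative and Ipo13 (0.09) was positive. At an unadjusted p under 0.05, 4 stood higher and 1 lower, where 7.96% of all tested genes stood higher and 5.26% lower. Ranbp1, the cytoplasmic cofactor that helps strip Ran from export complexes, read 19.2, 18.7 and 22.0 FPKM in the controls and 14.2, 13.6 and 8.86 FPKM with the mimic. All mimic libraries lay below all controls, and negative control 3 was the highest of the controls (log2 fold change of −0.69 with SE 0.18, unadjusted p = 0.007, limma adjusted p = 0.332; −0.64 after detrending). Its name resembles that of Ranbp2, but these are different proteins, and their estimates had opposite signs. Xpot, the exporter of transfer RNA, read 20.5, 20.04 and 18.0 FPKM against 27.5, 29.4 and 24.0 FPKM without overlap (0.44, SE 0.12, limma adjusted p = 0.332; 0.32 after detrending). Eny2, a subunit of the export complex at the basket (0.46, SE 0.13, limma adjusted p = 0.332), the importer Ipo11 (0.35, SE 0.13, limma adjusted p = 0.345) and the exporter Xpo4 (0.37, SE 0.15, limma adjusted p = 0.368) completed the group. After detrending these last stood at 0.20, 0.13 and 0.09. Without negative control 3, 12 of the 34 were called, 6 higher and 6 lower, where 11.6% of all tested genes were called higher and 12.2% lower. Xpot was among those called (0.39, limma adjusted p = 0.0362), and Ranbp1 was not (−0.62, limma adjusted p = 0.058). Nupl2, the older symbol under which the annotation lists the filament nucleoporin Nup42, lay outside the members' rule and read 1.29, 1.40 and 1.01 FPKM against 1.54, 2.25 and 1.91 FPKM, without overlap (0.37, SE 0.16, limma adjusted p = 0.384).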

How the data were processed

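Total RNA from 6 RAW264.7 samples was made into libraries with a SMARTer kit, per the labels' protocols. The authors deposited 1 FPKM table. The submitters' processing notes name mm10 as the build and fastp, HISAT2 and DESeq2 as tools; no source used here gives their versions, the annotation, the counting tool or the strand setting. Groups and replicate numbers came from the sample titles.

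Identifiers were matched to GENCODE M21 on GRCm38 (16582 matched, 83 not), which gave symbols, exon lengths and 3′ UTRs. limma 3.58.1 (R 4.3.3) was fitted to log2(FPKM + 1) of the 10166 genes whose mean FPKM reached 1, allowing for a mean-variance trend, two-sided, Benjamini-Hochberg adjusted over all tested genes at 0.05, without a covariate. Fold changes on this scale understate changes of low genes. Depth was recovered from FPKM steps: 98.5% to 99.0% of values worth 20 fragments or fewer were whole to within 0.1 fragment. limma voom was run on these recovered fragments. Detrending for length and GC used a natural spline with 4 degrees of freedom for each, fitted to each library's deviations from the gene means of 10128 genes and subtracted. No group term was fitted, so group differences that follow length or GC are subtracted as well.

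Within groups the lowest chi-square on recovered fragments was 4.49 per gene (negative controls 1 and 2), above the 1 that sampling of single molecules gives, and all libraries were kept; mimics 1 and 2 gave 6.37, pairs with mimic 3 gave 23.3 and 26.3, and pairs with negative control 3 gave 89.7 and 90.5. Same-numbered libraries correlated in their deviations from the group means at 0.287, 0.183 and 0.339, each over 0.1. The numbers were therefore used as pairs in an alternative fit, the replicate block, and the main fit does not use them. This pairing comes from the data, not from the labels. Deviations within a group cancel out for each gene, so these correlations are not independent of each other. Negative control 2 with mimic 1 gave 0.308, so the values do not single out the pairs of numbers 1 and 2.

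Members and lists were chosen with earlier results of these data known. Members named with all values are those with an unadjusted p under 0.05 and the 3 with the smallest p in each of 8 roles; Seh1l, Kpna2, Kpna6, Xpo1, Tnpo3, Kpnb1 and Nupl2 were added after their values were seen. Alternatives covered the pseudocount (0.1, 0.5), the filter (none, 5), scaling, array weights, the replicate block, voom, the trend and each library left out.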

Additional observations from a re-analysis of the deposited data

How the results depend on the processing

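With all 6 libraries, pseudocounts, filters, quantile and median scaling, voom and the replicate block left 0 members and 0 genes called, and all 24 members named by the rule kept their sign where they could be fitted (23 with the filter of 5). Of all 41 members, median scaling turned the sign of Kpnb1, Nup107, Nup133 and Nup43, and quantile normalization that of the last 3. The replicate block changed no call. With it, members at an unadjusted p under 0.05 went from 7 to 8, and all tested genes from 1344 to 1682. With median scaling these counts were 4 members and 1334 genes, and with quantile normalization 9 members and 1384 genes. Array weights, which gave negative control 3 a weight of 0.0861 and negative control 2 one of 5.44, called 5276 genes, 22 members and 17 other transport genes, and turned Ndc1 to 0.27 and Pom121 to −0.097, and outside the 24 the signs of Kpnb1, Nup93 and Rae1.

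Leaving libraries out gave 0 to 4377 genes, 0 to 21 members and 0 to 16 other transport genes; without negative control 3 these were 2412, 9 and 12, and with the trend also removed 389, 0 and 2. Leaving out replicate 3 of both groups, an alternative chosen after seeing the data, gave 4377, 21 and 16, and 2032, 6 and 11 with the trend removed. The members' median ranged from −0.013 to 0.19 and that of the other transport genes from −0.077 to 0.045.

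With the length and GC trend removed, with or without the replicate block, the members' median was 0.017 and the sign turned for 14 of the 41 members. Among the 24 these were Ipo7 (−0.00017), Kpna1 (−0.031), Kpna3 (−0.0027), Kpna4 (−0.0018), Nup155 (−0.077), Nup62 (0.036) and Nup98 (−0.030), and outside them Aaas, Ipo5, Kpnb1, Nup107, Nup133, Nup43 and Seh1l. The cause of each turn was not tested. Without negative control 3 the sign turned for 9 of the 41: Kpna6, Kpnb1, Ndc1, Nup107, Nup43, Nup88, Nup93, Pom121 and Rae1. Over all fits that left libraries out, with and without the trend, it turned at least once, among the 24, for Ipo7 (−0.087 to 0.43), Kpna1 (−0.063 to 0.37), Kpna3 (−0.026 to 0.34), Kpna4 (−0.060 to 0.51), Ndc1 (−0.23 to 0.28), Nup155 (−0.13 to 0.38), Nup210 (−0.13 to 0.037), Nup50 (−0.18 to 0.034), Nup62 (−0.54 to 0.17), Nup88 (−0.35 to 0.049), Nup98 (−0.14 to 0.20), Pom121 (−0.18 to 0.24), Tnpo1 (−0.020 to 0.54), Tpr (−0.030 to 0.33) and Xpo7 (−0.061 to 0.34). edgeR on recovered fragments was not run.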
